A study of Rattus norvegicus with 12 samples.

Results

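Expression of 9 genes of polyamine synthesis and breakdown was followed through the renal cortex of lean, obese and canagliflozin-treated obese rats. They were selected on their names, and on having a row in the normalized expression table, which means that reads had been counted for them. All 9 were present among the 13151 genes of that table, and all 9 passed the filter on low values that left 11633 genes for testing. No difference between groups entered the rule, but the list was drawn up with earlier results of these data in view, so the tests on it are not independent support for any direction.

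Whole renal cortex was sequenced in bulk from 12 male rats aged 32 weeks, 4 in each group. ZL rats were Zucker lean controls without treatment. ZF rats were untreated Zucker fatty rats, which are obese through a defect of leptin receptor signaling that every cell of the animal carries (the series text calls them leptin-deficient, and the methods leptin receptor-deficient). ZF-SGLT2i rats were Zucker fatty rats that received canagliflozin, an inhibitor of the sodium-glucose cotransporter SGLT2, in their food at 10 mg/kg/day for 8 weeks from the age of 24 weeks. In the methods, the ZL rats belong to a time-course cohort of ZL and ZF rats whose kidneys were biopsied at earlier ages, whereas the treated rats come from a separately purchased cohort of ZF rats for which no biopsy is stated. The labels do not give the cohort of any sequenced rat. As described, differences between treated and lean rats cannot be told apart from cohort and biopsy. The paper calls the sequenced untreated obese rats both ZF and ZF-NT, its name for the untreated arm of the separate cohort. By the name ZF-NT, ZF against ZL would cross cohorts too, but the labels do not state it. Reads assigned to genes numbered 8886901 to 12210257 per ZL rat, 8824980 to 11191377 per ZF rat, and 8914666 to 10293049 per ZF-SGLT2i rat. Levels are in CPM, the read count relative to library size, scaled by edgeR's TMM factors, which correct for differences in library composition. They are not divided by gene length. Levels of different genes are therefore set side by side only in the marker sums and their leading genes, where longer genes weigh more. None of the 12 listed proximal tubule markers or the 8 podocyte markers was absent. Every other marker list, among them those for blood and adipocytes, had reads as well, so their presence does not single out a tissue.

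Polyamines are small positively charged molecules that bind nucleic acids and are needed for growth and translation. Ornithine decarboxylase (Odc1) turns ornithine into putrescine, the first polyamine. S-adenosylmethionine decarboxylase (Amd1) supplies the aminopropyl groups with which spermidine synthase (Srm) and spermine synthase (Sms) extend putrescine. Antizyme (Oaz1) directs ornithine decarboxylase to the proteasome, antizyme inhibitor (Azin1) opposes antizyme, and breakdown runs through the acetyltransferase Sat1 and the oxidases Paox and Smox. In the rodent kidney Odc1 belongs to the proximal tubule and is known for its response to androgens.

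The upstream promoter sequences of Odc1 and Sat1 are shown because these were the members with the largest fitted decrease and the largest fitted increase in the comparisons below. Promoter entries from RefSeq on the rat assembly GRCr8 matched 8 of the 9 members by symbol, the exception being Azin1. Each sequence is the 250 bases before the annotated start, 5′ to 3′ on the plus strand, at chr6:46058415-46058664 for Odc1 and chrX:44007839-44008088 for Sat1. Capitals mark the GC box GGGCGG on either strand, which reads CCGCCC when it lies on the other strand.
Odc1: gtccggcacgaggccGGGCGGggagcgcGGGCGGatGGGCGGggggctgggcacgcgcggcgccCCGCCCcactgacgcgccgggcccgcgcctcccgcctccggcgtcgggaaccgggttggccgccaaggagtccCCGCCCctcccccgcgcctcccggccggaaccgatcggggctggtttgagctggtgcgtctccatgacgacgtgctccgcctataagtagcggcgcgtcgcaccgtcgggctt
Sat1: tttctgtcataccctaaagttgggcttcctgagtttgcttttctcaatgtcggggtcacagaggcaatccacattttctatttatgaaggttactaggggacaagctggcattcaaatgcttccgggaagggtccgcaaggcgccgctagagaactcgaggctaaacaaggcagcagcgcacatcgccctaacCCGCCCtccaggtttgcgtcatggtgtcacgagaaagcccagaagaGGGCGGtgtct
Odc1 held 5 GC boxes and Sat1 held 2. A GC box was present in 7 of the 8 members with an entry, all but Smox, and in 30.5% of all 33469 promoters over the same 250 bases. The palindromic E-box CACGTG was found in Srm and Oaz1, against 5.59% of all promoters. TATAAA, searched on both strands, was found in Amd1 and Oaz1, against 12.9% of all promoters. Neither of these motifs lay in the sequences shown, so no matches overlap there, and a match describes the sequence without showing that a factor binds there.

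In obese against lean cortex, 2 of the 9 genes fell and none rose. They were Odc1 and Sms, which encode the producers of putrescine (Odc1) and of spermine (Sms). Among all tested genes 18.8% passed the same threshold in this comparison, 8.19% higher and 10.6% lower (limma on log2(CPM + 1), Benjamini-Hochberg adjusted p under 0.05). The median log2 fold change of the 9 genes was -0.09, beside -0.01 over all genes tested. In 3 of the 9 genes, Odc1, Sms and Azin1, the levels of the 4 ZF rats did not overlap those of the 4 ZL rats, beside 19.0% of all genes. In bulk tissue, fewer cells of a type and less RNA per cell cannot be told apart.

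Canagliflozin treatment moved none of the 9 genes past the threshold against untreated ZF rats, a comparison in which 3.15% of all genes passed (1.39% higher, 1.75% lower). Sat1 alone had an unadjusted p under 0.05, and it alone had groups that did not overlap, beside 11.2% of all genes. On the recovered read counts, edgeR passed 0 and DESeq2 1 of the 9 here. The median log2 fold change was -0.06 over the 9 genes and 0.01 over all genes.

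Against ZL rats, the treated rats had 4 of the 9 genes past the threshold, with Sat1 higher and Odc1, Srm and Sms lower. Of all genes 27.4% passed here, 12.4% higher and 15.0% lower. The median log2 fold change was -0.06 over the 9 genes and 0 over all genes. Groups did not overlap for Odc1, Srm and Sat1, beside 28.0% of all genes. The 3 comparisons share their groups pairwise (ZF-SGLT2i against ZL uses the same lean rats as ZF against ZL), so a gene that passed in more than one of them was not observed independently.

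**Figure D1:**
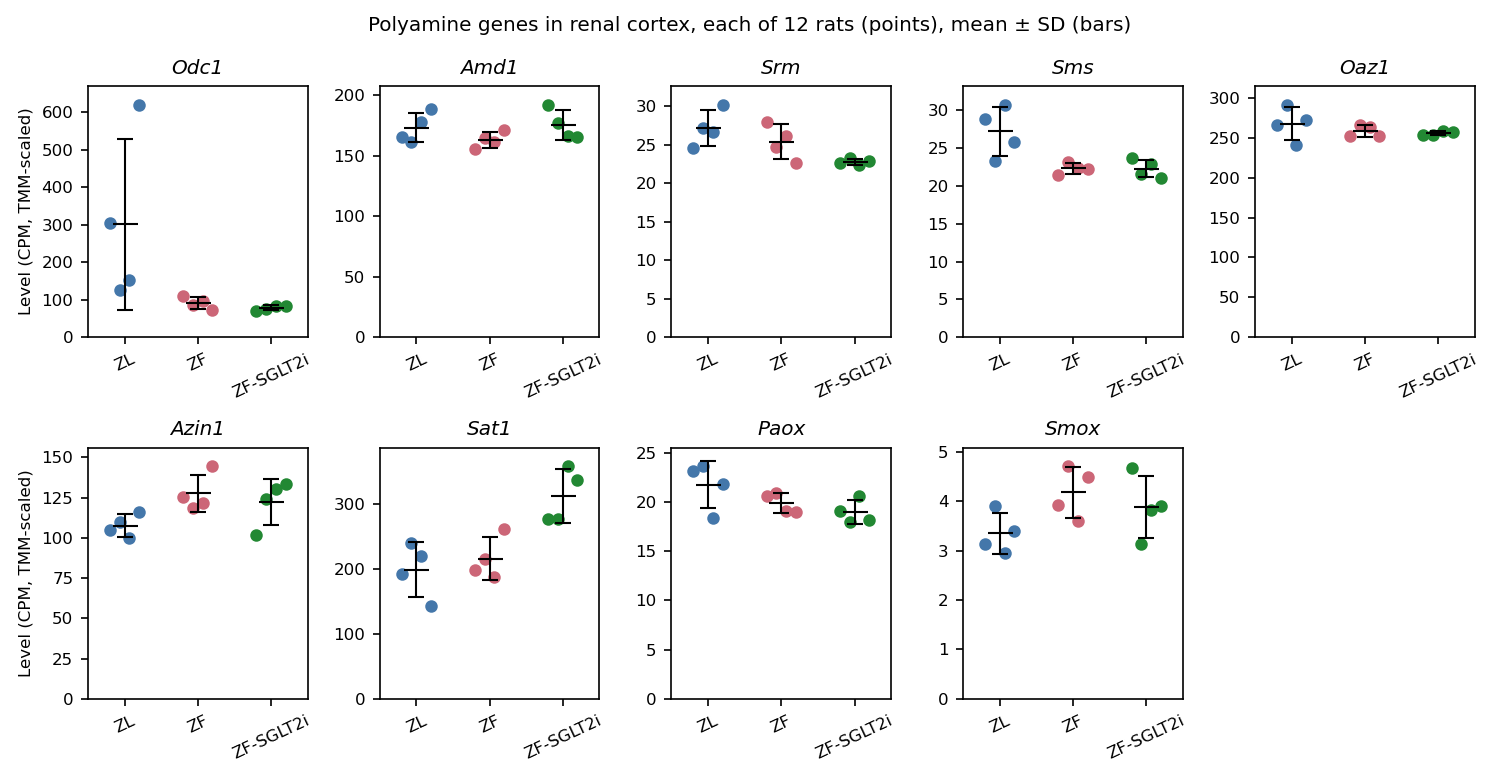
Level of each polyamine gene (CPM with TMM scaling, linear axes from 0) in each of the 12 rats, as points, with the mean and SD of each group of 4 rats as bars. Odc1 ranges from 127 to 620 in ZL rats but from 73.5 to 109 in ZF rats, and Sat1 is above 275 in every ZF-SGLT2i rat and below 263 in every other rat.

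Odc1, the enzyme that commits ornithine to polyamines, measured 305, 127, 152 and 620 CPM in ZL rats 1 to 4. In ZF rats 2, 3, 4 and 5 the levels were 109, 87.0, 96.8 and 73.5 CPM. In ZF-SGLT2i rats 2, 3, 4 and 6 they were 69.5, 76.1, 83.9 and 83.9 CPM. Every lean rat lay above every obese rat, and the lean rats spread far more widely than either obese group. The means were 301 ± 227 CPM in ZL rats, 91.5 ± 15.0 CPM in ZF rats and 78.4 ± 6.96 CPM in ZF-SGLT2i rats (SD, n = 4 each), from 672 to 6945 reads per rat. Odc1 fell in ZF against ZL, by 3.29-fold on the means, with a log2 fold change of -1.43 ± 0.36 (SE) and an adjusted p of 0.0149. The fold rested in part on ZL rat 4, without which the means differed 2.12-fold and the log2 fold change was -0.99 (adjusted p = 0.0115). Under canagliflozin the log2 fold change of Odc1 against ZF was -0.21 with a 95% confidence interval from -0.98 to 0.56 (adjusted p = 0.82). The SE was 0.36 in all 3 comparisons, since 1 spread was fitted over the 3 groups, widely spread lean rats included. On that shared spread, the interval does not exclude a decrease or an increase of moderate size. Against ZL, the treated rats were lower by 3.84-fold on the means (log2 fold change -1.64, adjusted p = 0.0046), and by 2.48-fold without ZL rat 4 (-1.20, adjusted p = 0.00232).

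Among ZL rats, Odc1 was highest in rat 4, then in rats 1, 3 and 2. Among ZF rats it was highest in rat 2, then in rats 4, 3 and 5. By the rule of highest Pearson correlation with Odc1 over the 12 rats, on log2(CPM + 1), the nearest genes of the table were Csad (r = 0.992), Prep (r = 0.99) and Cdo1 (r = 0.988). Csad and Cdo1 encode enzymes that lead from cysteine to taurine, and Prep encodes prolyl endopeptidase. All 3 had the same order among the 4 ZL rats and among the 4 ZF rats as Odc1, but among the treated rats only Cdo1 had its order. Cdo1, for example, had 64.6, 25.5, 26.1 and 112 CPM in ZL rats 1 to 4, and 24.5, 15.6, 19.2 and 15.6 CPM in ZF rats 2 to 5. The correlations are descriptions, since the 12 points fall into groups of rats and lie in the same libraries.

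Of 5 markers of the proximal straight tubule, the last segment of the proximal tubule, which lies in the medullary rays and the outer stripe of the medulla, Slc7a13, Slc22a7 and Atp11a had the same order of rats as Odc1 within ZL and within ZF, and Slc5a1 and Cyp7b1 did not. None of the 5 had the order of Odc1 among the treated rats. The order within ZL and ZF was not particular to this segment, since Umod of the thick limb, Havcr1 and Sox9 of the injured tubule list and Cidec of the adipocyte list shared it. All 5 straight tubule genes had reads, and Atp11a contributed most to their sum over the 12 rats, though Slc7a13 contributed more in ZL rats 1 and 4. Their summed level was 1706, 800, 951 and 3035 CPM in ZL rats 1 to 4, then 794, 543, 644 and 520 CPM in the ZF rats and 455, 484, 475 and 457 CPM in the ZF-SGLT2i rats. Slc7a13, an amino acid transporter typical of this segment, had 838, 140, 244 and 1896 CPM in the ZL rats, 148, 21.4, 36.0 and 6.12 CPM in the ZF rats, and 14.1, 19.3, 22.3 and 14.4 CPM in the ZF-SGLT2i rats. Slc22a7, an organic anion transporter, was listed at 0 in ZF rat 5 and reached 14.3 CPM in ZL rat 4.

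In ZF against ZL, 4 of these 5 markers fell, beside 10.6% of all genes lower. Cyp7b1 lay the other way, at 8.97 to 10.27 CPM in ZL rats and 10.28 to 11.45 CPM in ZF rats, so that every ZF rat was above every ZL rat, though the difference of 0.18 on the log2 scale did not pass (adjusted p = 0.24). Slc7a13 fell 14.7-fold on the means (log2 fold change -3.98, adjusted p = 0.0060), a fold that depended on single rats and was 7.70 without ZL rat 4 and 36.8 without ZF rat 2. The ranges of the groups overlapped for this gene, and Slc5a1, the sodium-glucose cotransporter SGLT1, fell by 0.99 on the log2 scale (adjusted p = 0.0043). The same 4 were lower in ZF-SGLT2i than in ZL, beside 15.0% of all genes lower. In ZF-SGLT2i against ZF, 0 of the 5 passed in limma, beside 3.15% of all genes, with 2 at an unadjusted p under 0.05. ZL rat 2 and ZF rat 2 had similar Slc7a13 levels, 140 and 148 CPM. Between these 2 rats Odc1 was 127 and 109 CPM, and the ornithine aminotransferase Oat was 329 and 247 CPM. The pair was picked after the values were seen. For each of these genes ZL rat 2 was the lowest lean rat and ZF rat 2 the highest ZF rat. From lowest to highest rat, Slc7a13 spanned 13.6-fold in ZL and 24.2-fold in ZF, and Odc1 4.9-fold and 1.48-fold. The part of this segment's share of the tissue in the Odc1 difference was not tested.

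**Figure D2:**
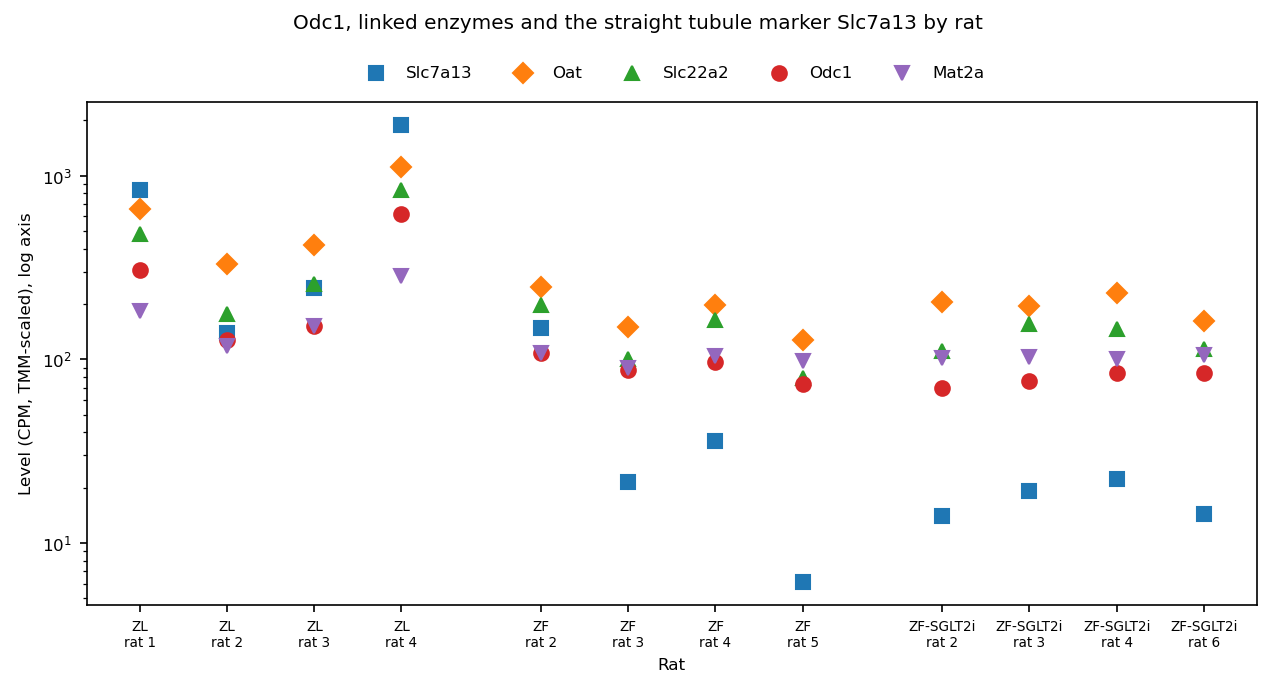
Level (CPM with TMM scaling, log axis) of Odc1, 3 linked enzymes or transporters and the straight tubule marker Slc7a13 in each rat. In ZL rats all 5 genes are highest in rat 4 and lowest in rat 2, and Slc7a13 spans 140 to 1896 there.

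Other marker lists moved as well in ZF against ZL, where 8.19% of all genes passed as higher and 10.6% as lower. Of 12 proximal tubule markers, led by Lrp2, 4 fell and 1 rose, and their summed level was 24479 to 27668 CPM in ZL rats, 18845 to 24226 in ZF rats and 16246 to 21069 in ZF-SGLT2i rats. Of 11 tested markers of injured tubule, led by Spp1, 9 rose, and Krt20 had no row. Podocyte markers rose in 4 of 8, fibroblast markers in 2 of 6, and macrophage markers in 0 of 8 (3 at an unadjusted p under 0.05). In ZF-SGLT2i against ZF, 4 of 6 fibroblast and 2 of 5 proliferation markers fell, beside 1.75% of all genes lower. Of 12 proximal tubule markers 1 was higher and 1 lower there, and 1 of 11 injured tubule markers was lower. In ZF-SGLT2i against ZL 5 of 8 collecting duct, 5 of 8 podocyte and 7 of 11 injured tubule markers were higher, beside 12.4% of all genes, and 5 of 12 proximal tubule, 3 of 6 fibroblast and 1 of 11 injured tubule markers were lower, beside 15.0%. Reads on ribosomal RNA rows took 7.25% to 12.0% of each ZL library, 8.82% to 12.0% of each ZF library, and between 11.5% and 15.2% of the treated libraries. The part of these shifts in the polyamine genes was not tested.

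Amd1, which makes the aminopropyl donor, passed in no comparison. It measured 173 ± 12.3 CPM in ZL rats, 163 ± 6.73 in ZF rats and 175 ± 12.4 in ZF-SGLT2i rats (SD, n = 4 each). The ZL rats ranged from 161 to 188 CPM, the ZF rats from 155 to 171 CPM and the treated rats from 166 to 192 CPM, so all groups overlapped. The log2 difference of ZF from ZL was -0.09 with an interval from -0.23 to 0.05, and quantile normalization turned it to 0.01.

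Srm, spermidine synthase, had 24.6, 27.1, 26.6 and 30.2 CPM in ZL rats 1 to 4. The 4 ZF rats showed 28.0, 24.8, 26.1 and 22.6 CPM, and the ZF-SGLT2i rats 22.7, 23.2, 22.3 and 22.9 CPM. The treated rats were the most alike, and all lay below every lean rat. Against ZL they were lower by 16.1% on the means (log2 fold change -0.24, adjusted p = 0.0350). This call was lost without any 1 of the 4 treated rats (adjusted p 0.0628 to 0.0715) and without ZL rat 2, 3 or 4 (adjusted p = 0.0602, 0.0521 and 0.105), and with array quality weights (0.0517). ZF differed from ZL by -0.09 (adjusted p = 0.43) and the treated from the untreated ZF rats by -0.15 (adjusted p = 0.37), neither past the threshold.

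Sms, spermine synthase, had 28.9, 23.3, 30.7 and 25.8 CPM in ZL rats 1 to 4. The ZF rats had 21.5, 23.2, 22.4 and 22.2 CPM, and the ZF-SGLT2i rats 23.6, 21.6, 22.8 and 21.1 CPM. The ZL and ZF groups were separated only by the gap between 23.3 and 23.2 CPM. Sms fell in ZF against ZL by 18.0% on the means (log2 fold change -0.27 ± 0.08, adjusted p = 0.0377). The call was lost when only the 2 groups were fitted (adjusted p = 0.0746), without any 1 ZF rat (0.0545 to 0.0944), and without ZL rat 1 (0.107), ZL rat 3 (0.101) or ZF-SGLT2i rat 3 (0.0505). The treated and untreated ZF rats had a log2 difference of 0.00, with an interval from -0.18 to 0.18. Against ZL the treated rats were lower (log2 fold change -0.27, adjusted p = 0.0270), a call lost with only the 2 groups fitted (adjusted p = 0.0515) and without ZL rat 1, ZL rat 3, ZF-SGLT2i rat 3 or ZF-SGLT2i rat 6 (0.0822, 0.0725, 0.0691 and 0.0782).

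**Figure D3:**
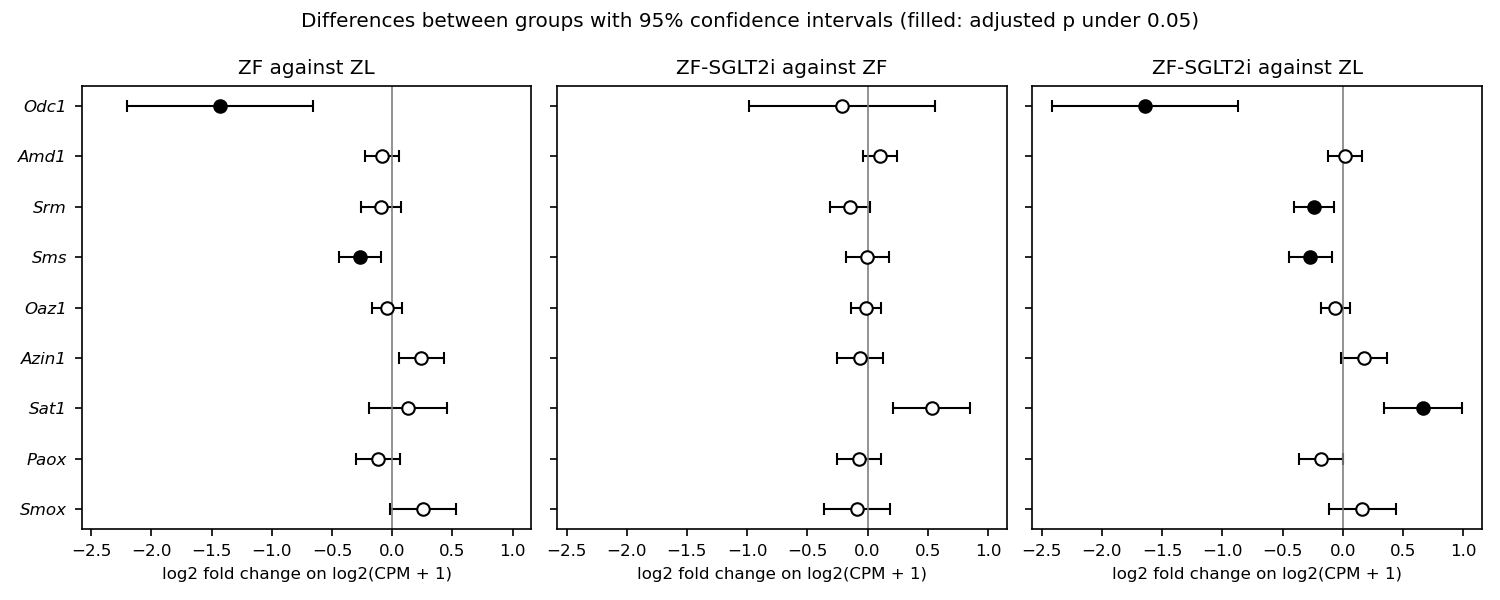
Log2 fold changes of the 9 genes on the log2(CPM + 1) scale, with 95% confidence intervals, in the 3 comparisons of groups of 4 rats. Filled points passed an adjusted p of 0.05: Odc1 and Sms in ZF against ZL, none in ZF-SGLT2i against ZF, and Odc1, Srm, Sms and Sat1 in ZF-SGLT2i against ZL.

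Of the regulators of ornithine decarboxylase, Oaz1 had 268 ± 20.8 CPM in ZL rats, 259 ± 7.24 in ZF rats and 256 ± 2.11 in ZF-SGLT2i rats (SD, n = 4 each), and it passed in no comparison. Its fitted differences from ZL, -0.05 in ZF and -0.06 in ZF-SGLT2i, turned to 0.07 and 0.04 under quantile normalization. Azin1, the antizyme inhibitor, had 105, 110, 100 and 116 CPM in ZL rats 1 to 4. ZF rats measured 125, 119, 122 and 145 CPM, and the ZF-SGLT2i rats 102, 124, 131 and 133 CPM. All ZF rats lay above all ZL rats, but the difference of 0.24 on the log2 scale had an adjusted p of 0.0725. Over the 22 alternatives this p ranged from 0.0328 to 0.297, and it was under 0.05 with quantile normalization, with DESeq2 (0.0449) and without ZF-SGLT2i rat 2 (0.0345). The treated rats did not differ from ZF by more than their spread (-0.06, interval -0.25 to 0.13). Against ZL their difference of 0.18 had an adjusted p of 0.15, or 0.0251 without ZF-SGLT2i rat 2.

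Sat1, the acetyltransferase that starts polyamine breakdown and export, was the 1 member of the 9 that passed as higher in treated than in lean rats. It had 192, 240, 220 and 143 CPM in ZL rats 1 to 4. The 4 ZF rats showed 198, 215, 187 and 262 CPM, and the ZF-SGLT2i rats 277, 276, 358 and 336 CPM. The ZL and ZF rats overlapped, and every treated rat lay above both. The means were 199 ± 42.1 CPM in ZL rats, 215 ± 33.1 in ZF rats and 312 ± 41.7 in ZF-SGLT2i rats (SD, n = 4 each). ZF-SGLT2i exceeded ZL by 57.0% on the means, with a log2 fold change of 0.67 ± 0.15 and an adjusted p of 0.0053. Against untreated ZF rats the mean was 44.7% higher, with a log2 fold change of 0.53 and an interval from 0.21 to 0.85. The unadjusted p was 0.0032 and the adjusted p 0.0736, so this difference did not pass over all genes tested. The adjusted p ranged from 0.0152 to 0.193 over the 22 alternatives, and it passed with only the 2 groups fitted (0.0241), array quality weights (0.0307), DESeq2 (0.0152), without ZL rat 4 (0.0195) and without ZF rat 5 (0.0315). ZF and ZL differed by 0.13 (interval -0.19 to 0.45), and by -0.02 without ZL rat 4. Among ZL rats the order of Sat1 was the reverse of that of Odc1 and Slc7a13, with rat 2 highest and rat 4 lowest. This did not hold among ZF or treated rats.

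Collecting duct markers and Slc12a3 shared the order of Sat1 in part. The summed level of the 8 collecting duct markers, of which all had reads and Aqp2 contributed 20.8% to 32.4% per rat, was 1683, 2287, 1882 and 1434 CPM in ZL rats 1 to 4, then 1838, 2170, 1563 and 2335 CPM in ZF rats 2 to 5 and 2639, 2718, 2679 and 2972 CPM in the ZF-SGLT2i rats. As for Sat1, every treated rat lay above every other rat. The order of this sum within ZL and within ZF was that of Sat1, and it was also the order of Slc12a3, the sodium-chloride cotransporter of the distal convoluted tubule, and of the intercalated cell genes Slc4a1, Slc26a4 and Atp6v1g3. Within the treated rats neither the sum nor any of these 4 genes had the order of Sat1. All 8 collecting duct markers had higher means in treated than in untreated ZF rats, with a median log2 difference of 0.39. Only Aqp2 of the 8 passed (adjusted p = 0.0495), beside 1.39% of all genes higher. Slc12a3 was 0.43 higher there (adjusted p = 0.20) and 0.79 higher in treated than in lean rats (adjusted p = 0.0037). Slc12a3 belongs to a list of 8 thick limb and distal tubule markers, led by Umod and without a row for Pvalb, whose sum was not higher in treated rats, averaging 9306 ± 258 CPM in lean, 8753 ± 655 in untreated obese and 8426 ± 537 in treated obese rats (SD, n = 4 each). The part of these segments in the Sat1 differences was not tested.

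The oxidases of back-conversion passed in no comparison. Paox, the acetylpolyamine oxidase, had 21.8 ± 2.39 CPM in ZL rats, 19.9 ± 0.99 in ZF rats and 19.0 ± 1.21 in ZF-SGLT2i rats (SD, n = 4 each). Its log2 difference of treated from lean rats was -0.18 (adjusted p = 0.13), and it passed with array quality weights (0.0315) and without ZL rat 3 (0.0253). Smox, the spermine oxidase, rested on 26 to 49 reads per rat. It had 3.35 ± 0.41 CPM in ZL rats, 4.18 ± 0.51 in ZF rats and 3.88 ± 0.63 in ZF-SGLT2i rats (SD, n = 4 each). The ZF difference from ZL was 0.25 on the log2 scale with an interval from -0.02 to 0.53, and it did not pass.

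A wider list of 38 genes that supply, use, regulate or transport polyamines was examined beside the 9. Of these, 36 had a row (all but Aoc1 and Slc18b1), and 32 were tested. In ZF against ZL, 14 of the 32 passed, 2 higher and 12 lower, with a median log2 fold change of -0.20, beside 18.8% of all genes (8.19% higher, 10.6% lower) and a median of -0.01. In ZF-SGLT2i against ZF 1 passed, beside 3.15% of all genes. In ZF-SGLT2i against ZL 17 passed, 2 higher and 15 lower, with a median of -0.21, beside 27.4% of all genes (12.4% higher, 15.0% lower) and a median of 0.

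**Figure D4:**
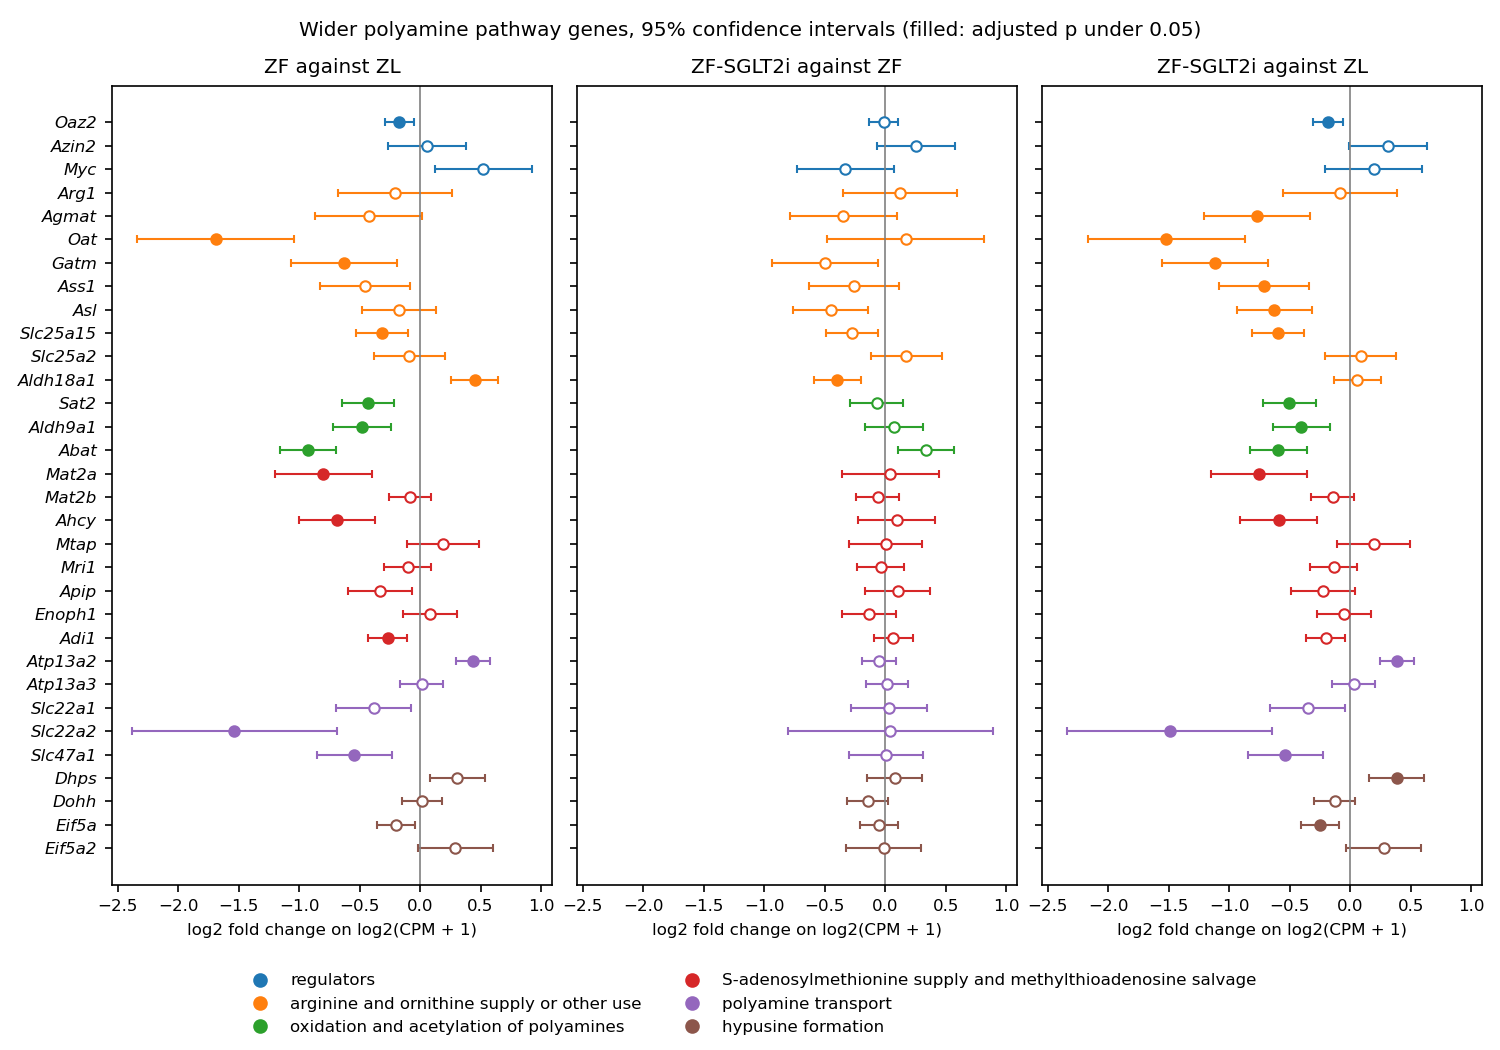
Log2 fold changes (log2(CPM + 1) scale) with 95% confidence intervals of the 32 tested genes of the wider list, colored by role, in the 3 comparisons of groups of 4 rats. Filled points passed an adjusted p of 0.05, 14 in ZF against ZL, 1 in ZF-SGLT2i against ZF and 17 in ZF-SGLT2i against ZL. Oat and Slc22a2 lie farthest to the left in both comparisons with ZL, and Gatm does in ZF-SGLT2i against ZF.

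Of 9 tested genes that supply ornithine or use it otherwise, 3 fell, 1 rose and 5 did not pass in ZF against ZL. Over all genes 10.6% were lower and 8.19% higher there. Oat, which carries ornithine toward glutamate, had 660, 329, 420 and 1121 CPM in ZL rats 1 to 4, with ZF rats at 247, 150, 196 and 128 CPM. The treated rats had 206, 194, 229 and 162 CPM. Every lean rat exceeded every obese rat, and the order of rats within ZL and within ZF, but not within the treated group, was that of Odc1. Oat fell 3.51-fold on the means in ZF (log2 fold change -1.69 ± 0.30, adjusted p = 0.0027) and was 3.20-fold lower in ZF-SGLT2i than in ZL (-1.52, adjusted p = 0.0027). It passed under all 22 alternatives in both comparisons.

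Aldh18a1, the enzyme that makes the precursor of ornithine and proline from glutamate, moved the other way. It had 10.2, 13.2, 12.6 and 12.3 CPM in ZL rats 1 to 4. The ZF rats had 17.1, 18.1, 16.0 and 16.2 CPM, and the treated rats 13.4, 11.4, 12.9 and 12.6 CPM. The ZF rats stood above both other groups without overlap. Aldh18a1 rose in ZF against ZL (log2 fold change 0.45, adjusted p = 0.0047) and was the 1 gene of the list to pass in ZF-SGLT2i against ZF (-0.39, adjusted p = 0.0293). That second call was lost without ZF rat 2, 3 or 4 (adjusted p = 0.0805, 0.092 and 0.0568) or without ZF-SGLT2i rat 3, 4 or 6 (0.0995, 0.0629 and 0.0747).

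Gatm, which joins arginine and glycine on the way to creatine, and Slc25a15, the mitochondrial ornithine carrier, passed in ZF against ZL at the edge of the threshold. Gatm fell by 0.63 on the log2 scale (adjusted p = 0.0462) and did not pass without ZL rat 1, 2 or 3 (adjusted p = 0.101, 0.0878 and 0.112), without ZF rat 2, 3 or 5 (0.115, 0.0678 and 0.13) or without ZF-SGLT2i rat 2 or 3 (0.0598 and 0.0567). It also did not pass with quantile normalization (-0.42, adjusted p = 0.11), with only the 2 groups fitted (0.0649) or with no filter on low values (0.0535). Slc25a15 fell by 0.32 (adjusted p = 0.0408) and did not pass without ZL rat 1, 3 or 4 (0.112, 0.0721 and 0.06), without ZF rat 2, 3 or 5 (0.103, 0.109 and 0.106) or without ZF-SGLT2i rat 2 (0.0539), nor with quantile normalization (0.0631), only the 2 groups fitted (0.0552) or edgeR on the reads (0.0515). Against ZL, both were lower in treated rats, Gatm by 2.16-fold (adjusted p = 0.0015) and Slc25a15 by 1.52-fold (adjusted p = 0.00093) on the means. The urea cycle enzymes Ass1 and Asl, which make arginine in the kidney, were also lower in treated than in lean rats (log2 fold changes -0.71 and -0.63, adjusted p = 0.0079 and 0.0057), as was Agmat, an agmatinase-like enzyme (-0.77, adjusted p = 0.0138). ZL rat 4, which had the highest Odc1, Oat and Agmat of the lean rats, had the lowest Gatm (2198 CPM), Ass1 (754 CPM) and Asl (152 CPM) among them.

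All 3 tested genes for acetylation and later oxidation outside the 9 fell in ZF against ZL and were lower in ZF-SGLT2i than in ZL. Over all genes 10.6% and 15.0% passed as lower in these comparisons. Abat, which breaks down GABA, a product that putrescine can yield, had 154, 140, 157 and 132 CPM in ZL rats 1 to 4. ZF rats measured 66.4, 78.6, 94.3 and 67.2 CPM, and the treated rats 105, 94.8, 102 and 82.8 CPM. ZL rat 4 was the lowest of the lean rats for Abat, unlike for Odc1. Abat fell in ZF by 0.93 on the log2 scale (SE 0.11, adjusted p = 0.00014), and was lower in treated than in lean rats (-0.59, adjusted p = 0.0015), under all 22 alternatives in both comparisons. Its difference between treated and untreated ZF rats, 0.34, did not pass (adjusted p = 0.12). Sat2, an acetyltransferase related to Sat1, fell by 0.43 in ZF (adjusted p = 0.0107), and Aldh9a1, an aminoaldehyde dehydrogenase, by 0.48 (adjusted p = 0.0104). In treated against lean rats Sat2 differed by -0.50 (adjusted p = 0.0028) and Aldh9a1 by -0.40 (adjusted p = 0.0159). The Aldh9a1 call there was lost with quantile normalization (0.0601), without ZL rat 1 (0.0531) and without ZF-SGLT2i rat 6 (0.0566).

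Of 8 tested genes for S-adenosylmethionine supply and methylthioadenosine salvage, 3 fell in ZF against ZL, beside 10.6% of all genes lower. Mat2a, the S-adenosylmethionine synthetase of tissues other than liver, had 182, 118, 152 and 284 CPM in ZL rats 1 to 4. The 4 ZF rats showed 108, 89.3, 104 and 98.3 CPM, and the treated rats 102, 103, 101 and 106 CPM. Every obese rat lay below every lean rat, and the lean rats again ran in the order 4, 1, 3, 2. Mat2a fell by 0.80 (adjusted p = 0.0104) and Ahcy, which hydrolyzes S-adenosylhomocysteine, by 0.69 (adjusted p = 0.0070). Against ZL the treated rats had log2 fold changes of -0.76 for Mat2a (adjusted p = 0.0087) and -0.59 for Ahcy (adjusted p = 0.0096). Adi1, of the salvage route, fell by 0.27 in ZF (adjusted p = 0.0251), and did not pass without ZL rat 1 or 3 (0.0643 and 0.0634) or without ZF rat 2, 3 or 5 (0.0772, 0.0674 and 0.0532), nor with quantile normalization (0.0525).

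Transport genes divided. Atp13a2, a lysosomal polyamine exporter, had 30.7, 30.3, 34.1 and 29.8 CPM in ZL rats 1 to 4. The ZF rats had 44.4, 41.7, 39.9 and 44.8 CPM, and the treated rats 42.6, 39.0, 39.3 and 43.7 CPM. All obese rats lay above all lean rats. Atp13a2 rose by 0.44 in ZF (adjusted p = 0.00097) and was 0.39 higher in ZF-SGLT2i than in ZL (adjusted p = 0.0010), under all 22 alternatives. Slc22a2, an organic cation transporter that accepts polyamines, had 484, 177, 259 and 840 CPM in ZL rats 1 to 4. ZF rats measured 196, 101, 165 and 79.4 CPM, and the treated rats 112, 155, 147 and 114 CPM. ZF rat 2 lay within the lean range, and the rats of ZL and of ZF, but not the treated rats, ran in the order of Odc1. Slc22a2 fell by 1.54 in ZF (adjusted p = 0.0165), a call lost without ZL rat 1 (0.0522) or ZF rat 3 (0.0518), and was lower in treated than in lean rats (-1.49, adjusted p = 0.0129). Slc47a1, which exports organic cations to the urine, fell by 0.54 in ZF (adjusted p = 0.0191) and differed by -0.54 in treated against lean rats (adjusted p = 0.0141). The first of these calls was lost without ZL rat 1 (0.0558), ZF rat 2 (0.0509) or ZF rat 5 (0.0546).

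Among the other regulators, Oaz2, a further antizyme, fell by 0.17 in ZF at an adjusted p of 0.0493. That call did not pass without ZL rat 1, 2 or 4 (0.147, 0.0539 and 0.0888), without ZF rat 2, 3 or 5 (0.14, 0.0916 and 0.095) or without ZF-SGLT2i rat 2, 3 or 6 (0.0571, 0.065 and 0.0602). Nor did it pass with quantile normalization (-0.08, adjusted p = 0.322), edgeR on the reads (0.0668), rescaling by median ratios (0.0636), only the 2 groups fitted (0.0827) or no filter on low values (0.0507). Its value against ZL in treated rats was -0.18 (adjusted p = 0.0270), lost with quantile normalization (-0.09, adjusted p = 0.201), without ZL rat 1 or 4 (0.091 and 0.0544) or without ZF-SGLT2i rat 2, 3 or 6 (0.078, 0.0737 and 0.0534). Myc, which encodes a transcription factor known to activate Odc1, had 8.82 ± 1.73 CPM in ZL rats, 13.3 ± 3.70 in ZF rats and 10.2 ± 1.95 in ZF-SGLT2i rats (SD, n = 4 each) and did not pass in any comparison (ZF against ZL 0.52, adjusted p = 0.066). Of the 4 genes for hypusine, the spermidine-derived residue of eIF5A, Dhps and Eif5a had log2 differences of 0.31 and -0.20 in ZF against ZL that did not pass (adjusted p = 0.0585 and 0.0689). In treated against lean rats Dhps, which builds the residue, was higher (0.38, adjusted p = 0.0159, or 0.0522 without ZL rat 1) and Eif5a lower (-0.25, adjusted p = 0.0195). The Eif5a call was lost with quantile normalization (0.0857), without ZL rat 1 or 4 (0.0529 and 0.0548) and without ZF-SGLT2i rat 6 (0.0651).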

How the data were processed

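The authors deposited 1 table of normalized values for all 12 rats. Per the labels, RNA from kidney cortex was depleted of ribosomal RNA and made into stranded libraries. The submitters' processing notes name Trimmomatic (version 0.38), RSEM (version 1.3.0), Bowtie2, edgeR and the genome build rn6. How reads shared with processed gene copies were assigned, which matters most for Odc1 and Amd1, and the annotation are not given in the sources used here. The deposited signal values were whole reads times 1 constant per rat (100% of values whole within 1e-04 of a read) and equalled CPM with edgeR's TMM factors, so the read counts and the depth of each rat were recovered.

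Values were tested as log2(value + 1) with limma (version 3.58.1, R 4.3.3, trended variance), 3 groups in 1 fit, over the 11633 genes that reached 1 CPM in 4 or more rats. P-values are two-sided and adjusted by Benjamini-Hochberg over those genes, with a threshold of 0.05. Fold changes on this scale understate the change of low genes. On the recovered counts, edgeR's quasi-likelihood test (version 4.0.16) passed 2180 genes between ZF and ZL, 368 between treated and untreated ZF, and 3216 between treated ZF and ZL, and DESeq2 (version 1.42.0) was a further alternative. The other alternatives were a pseudocount of 0.1, no filter and a mean minimum of 10, quantile normalization, rescaling by median ratios, only the 2 groups compared, a replicate block, array quality weights, and each rat left out. The scripts were tested on simulated data. Rats of a group differed by more than counting noise (chi-square per gene 5.63 to 52.5), so none was a repeated library.

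Of the 10 listed genes 1 is not reported here, and counts are over the other 9, all described. Genes of the wider list are named where they passed in at least 1 comparison, with Myc named after its values were seen, and the 3 genes nearest to Odc1 by Pearson correlation are named. For the tubule and collecting duct marker lists, the most abundant gene and genes without a row are named. For the other marker lists these are not named, and further markers of any list were picked after their values were seen. The members and all lists were chosen with earlier results of these data known. Promoters are RefSeq sequences on GRCr8, another build than that of the table, and were matched by symbol only.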

Additional observations from a re-analysis of the deposited data

Results flagged for a closer look

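In 4 of the 84 groups of 4 rats examined, 1 rat stood apart from the other 3 by Dixon's criterion, and chance gives about 1 in 20, or 4.2 of 84. None was a group of the 9 polyamine genes. Slc25a15, the ornithine carrier, was 38.8 CPM in ZF rat 4, and 28.9 to 29.8 CPM in the other ZF rats. Slc47a1, the cation exporter, was 270 CPM in ZL rat 2 against 340 to 347 CPM in the other ZL rats, and 169 CPM in ZF-SGLT2i rat 6 against 241 to 248 CPM in the other treated rats. Dhps, which forms hypusine, was 21.5 CPM in ZL rat 2 and 15.6 to 16.4 CPM in the other ZL rats.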

How the results depend on the processing

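Over 22 alternatives, 12 of them leaving out 1 rat, 3 counts of genes past the threshold were followed, 2185 between ZF and ZL, 366 between treated and untreated ZF, and 3184 between treated ZF and ZL, given in that order below. Of the 9 polyamine genes 2, 0 and 4 passed. With the replicate block the genes numbered 807, 223 and 1502 and the polyamine genes 0, 0 and 1, but same-numbered rats did not deviate together (correlations -0.376 to 0.253), so the numbers were not taken to pair the rats. With the block Odc1 had -1.23 in ZF against ZL (adjusted p = 0.103) and Sat1 had 0.62 in ZF-SGLT2i against ZL (0.0635). The 1 polyamine gene that kept its call with the block was Odc1 in ZF-SGLT2i against ZL. The block is left out of the lists of lost calls above. In the wider list it lost Aldh18a1, Sat2, Ahcy, Mat2a, Adi1, Slc22a2, Slc25a15, Oaz2 and Gatm in ZF against ZL (0.0556 to 0.27). It also lost Aldh18a1 in ZF-SGLT2i against ZF (0.0968). In ZF-SGLT2i against ZL it lost Aldh9a1, Mat2a, Ahcy, Eif5a, Asl, Slc22a2, Agmat, Dhps, Ass1 and Oaz2 (0.0617 to 0.116). With rats left out, genes ranged over 1389 to 2453, 176 to 570 and 2241 to 3302, and polyamine genes over 1 to 3, 0 to 1 and 2 to 4. The polyamine count fell to 1 in ZF against ZL without ZL rat 1, ZL rat 3, any 1 ZF rat or ZF-SGLT2i rat 3, and to 2 in ZF-SGLT2i against ZL without ZF-SGLT2i rat 3 or 6. The first count was lowest without ZL rat 1, and the second without ZF-SGLT2i rat 3 (176) and highest without ZF rat 5 (570). With only the 2 groups compared, polyamine genes numbered 1, 1 and 3. In ZF-SGLT2i against ZF, array quality weights passed 689 genes and DESeq2 641, with 1 polyamine gene each. The cause was not tested.

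Quantile normalization moved the split of calls in ZF against ZL from 953 higher and 1232 lower (43.6% higher) to 1103 and 942 (53.9% higher). In ZF-SGLT2i against ZL the split moved from 1441 higher and 1743 lower (45.3% higher) to 1608 and 1467 (52.3% higher). In ZF-SGLT2i against ZF it went from 44.3% to 41.9% higher. Signs turned for Amd1 (0.01) and Oaz1 (0.07 in ZF against ZL, 0.04 in ZF-SGLT2i against ZL) with quantile normalization, and in ZF-SGLT2i against ZF for Sms (0.02) with the replicate block. Leaving out a rat turned Sat1 in ZF against ZL (range -0.02 to 0.23), Azin1 in ZF-SGLT2i against ZF (-0.11 to 0.02), Sms in the same comparison (-0.03 to 0.02) and Amd1 in ZF-SGLT2i against ZL (-0.03 to 0.06). None of these differences had passed. Odc1 in ZF-SGLT2i against ZL passed under all 22 alternatives.

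The p-values rest on 4 rats a group. In the main fit they set each difference against a spread between rats that was estimated over all 3 groups. Genes with few reads, such as Smox, carry more counting error. Values are relative to all RNA of whole cortex, whose summed straight tubule marker level ranged from 800 to 3035 CPM among the lean rats, and the order in which rats were processed was not analysed here.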
